A study of Mus musculus with 18 samples.

Results

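The change in gene expression on transfer from growth to differentiation medium was compared between C2C12 cells overexpressing the spliced form of the long non-coding RNA MUNC and C2C12 cells overexpressing its genomic form, across 12 of 18 polyA RNA-seq libraries. C2C12 is a mouse myoblast line, the stock was labelled PAX7 NEG, and MUNC is transcribed upstream of the muscle regulator gene Myod1. The 4 groups compared were MUNC spliced and MUNC genomic cells in growth medium with 20% fetal bovine serum (GM) and the same 2 lines after 3 days in 2% horse serum (DM3), with 3 libraries a group that the design text calls biological replicates. The 6 libraries of Wild-type control cells in the same media entered the fit and are given beside the results. A further label naming the source as myoblasts or myotubes went against the titles in 9 of the 18 samples, and groups were taken from the titles. The vectors, and whether a line is 1 clone, are not given in the sources used here, so the 2 forms cannot be told apart from other differences between the 2 lines. No entry for MUNC was matched among the named genes, so the overexpressed transcripts were not checked.

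The myoblast label was checked against marker genes. Des, the muscle intermediate filament gene, lay between 16 and 94.4 FPM in the control and MUNC spliced libraries and between 332 and 1010 FPM in the MUNC genomic libraries (FPM being the deposited fragment counts scaled for library size and not for gene length). The myoblast genes Myf5 and Cdh15 lay between 20 and 125 FPM and between 18.1 and 277 FPM over all 18 libraries. Myod1 was nearly absent from control cells, at 0 to 0.0854 FPM in GM and 0 to 0.221 FPM in DM3. In the MUNC lines Myod1 lay between 1.66 and 53.3 FPM. Pax7 reached at most 0.147 FPM, and the immune, endothelial and epithelial genes Ptprc, Pecam1 and Epcam at most 0.328, 0.221 and 0.0368 FPM. Library depth was 38416702 to 68788327 recovered reads, so that 3 reads were worth 0.0429 to 0.0757 FPM. Replicate 1 of MUNC spliced DM3 stood apart, with a mean correlation of 0.982 with its group, the lowest of the 18 libraries, and with higher muscle, cell cycle and lipid synthesis genes than the other 2 replicates. Several list medians and muscle genes are given with and without it. Interferon genes were higher in replicate 2 than in replicates 1 and 3 of MUNC spliced GM and of control GM.

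Myoblasts leave the cell cycle and fuse when serum is withdrawn, under the bHLH factors Myod1 and Myog, and then assemble sarcomeres, the contractile units of muscle. Interferon-stimulated genes form a separate program: type I interferons act through the receptor Ifnar1 and Ifnar2 and the kinases Jak1 and Tyk2 on a transcription factor complex that includes Stat2 and Irf9 and binds interferon-stimulated response elements (ISREs) in the promoters of antiviral genes. The transcription factor Atf4 drives another program, of amino acid synthesis and uptake under nutrient or protein folding stress.

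The promoters of 4 antiviral genes with the higher response in MUNC spliced cells are shown. Each holds letters like the ISRE, and binding at these promoters was not measured. Each sequence runs from 250 bases before to 50 bases after the start site in RefSeq (GRCm38.p6) and is given 5′ to 3′ on the gene's strand, with capitals marking each match to the motif GAAANNGAAA on either strand. Overlapping matches run together in the capitals.

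Isg15, chr4:156200769-156201068, minus strand: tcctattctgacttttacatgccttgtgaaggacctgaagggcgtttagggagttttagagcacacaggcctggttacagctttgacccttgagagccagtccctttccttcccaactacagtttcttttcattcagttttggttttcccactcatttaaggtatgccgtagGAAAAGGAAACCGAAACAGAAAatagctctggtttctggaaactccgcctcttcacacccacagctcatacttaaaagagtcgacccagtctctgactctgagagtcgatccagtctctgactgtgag
Oas1a, chr5:120907476-120907775, minus strand: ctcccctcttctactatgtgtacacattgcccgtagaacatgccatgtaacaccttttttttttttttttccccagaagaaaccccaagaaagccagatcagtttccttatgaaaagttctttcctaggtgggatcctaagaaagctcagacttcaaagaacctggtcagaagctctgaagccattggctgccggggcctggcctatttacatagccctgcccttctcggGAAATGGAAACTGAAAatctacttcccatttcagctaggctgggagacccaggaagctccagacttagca
Ddx60, chr8:61927837-61928136, plus strand: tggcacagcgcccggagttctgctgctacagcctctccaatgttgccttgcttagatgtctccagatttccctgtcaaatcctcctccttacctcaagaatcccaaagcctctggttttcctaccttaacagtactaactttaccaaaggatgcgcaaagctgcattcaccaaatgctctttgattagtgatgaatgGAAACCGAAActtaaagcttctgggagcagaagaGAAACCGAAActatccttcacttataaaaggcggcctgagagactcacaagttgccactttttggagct
Slfn9, chr11:82991781-82992080, minus strand: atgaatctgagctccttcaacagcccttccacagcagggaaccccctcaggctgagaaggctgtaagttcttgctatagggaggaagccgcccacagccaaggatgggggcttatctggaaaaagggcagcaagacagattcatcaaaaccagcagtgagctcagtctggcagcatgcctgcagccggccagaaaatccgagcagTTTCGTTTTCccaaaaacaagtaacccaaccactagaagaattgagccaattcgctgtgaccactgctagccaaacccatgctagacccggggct

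Matches numbered 3 in Isg15, 2 in Oas1a, 2 in Ddx60 and 1, on the opposite strand, in Slfn9. Of all 27025 genes with a promoter entry, 1079 (3.99%) held the motif. Not every gene called higher held the motif: the promoter entries of Ifi44, Irf7 and Irf9 had no match. A match describes the letters and not binding. Only 40 of the 54 interferon-stimulated genes called higher (74.1%) had an entry, which is under the 80% needed, so a check over the whole list is void.

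For each gene the response of a line was its DM3 minus GM difference in log2(FPM + 1), and the contrast was the MUNC spliced response minus the MUNC genomic response. Errors after ± are standard errors from limma, n = 3 libraries a group, and calls were made at p under 0.05 after Benjamini-Hochberg adjustment over 13869 tested genes. These p-values measure the spread between the deposited libraries. The contrast was called for 1460 genes (10.5% of those tested), of which 743 (5.36%) had a higher and 717 (5.17%) a lower response in MUNC spliced cells. Within MUNC spliced cells 2388 genes (17.2%) rose and 2545 (18.4%) fell in DM3, and within MUNC genomic cells 3643 genes (26.3%) rose and 3484 (25.1%) fell. The median contrast over all tested genes was -0.01. Both responses had the same sign in 10834 genes (78.1%), and their correlation across genes, which are not independent replicates, was r = 0.701.

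**Figure D1:**
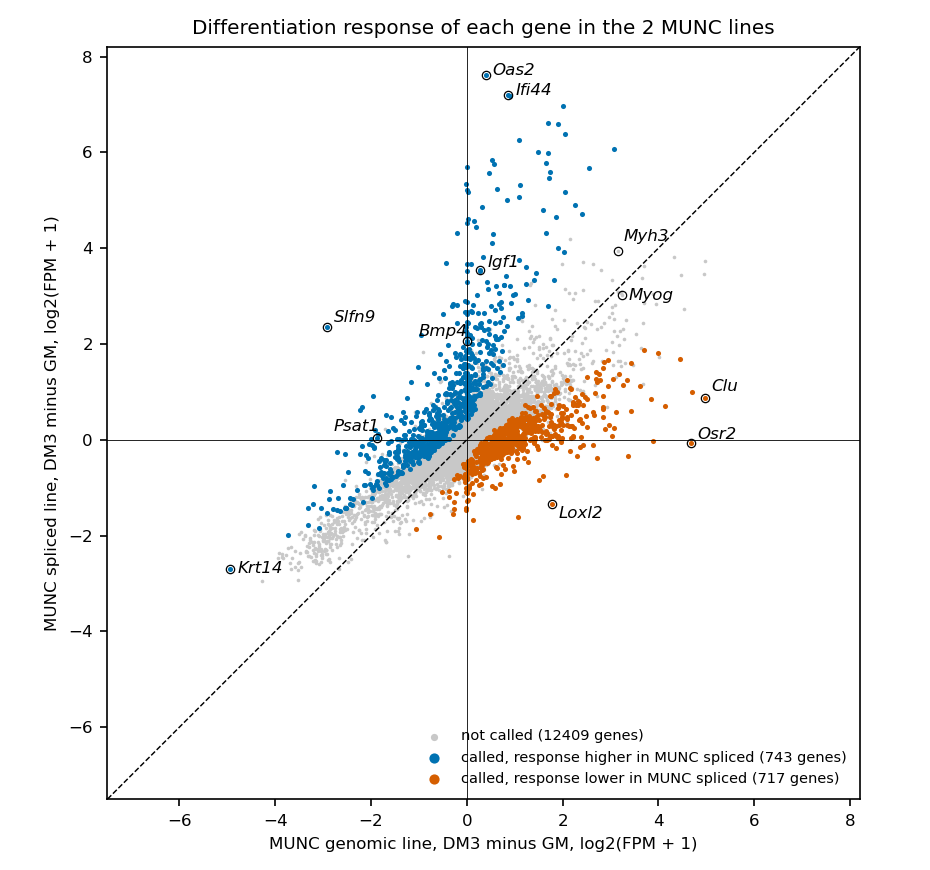
Each point is a gene, with its MUNC genomic response on the x axis and its MUNC spliced response on the y axis, both in log2(FPM + 1). Colours mark the 743 genes with a higher and the 717 with a lower response in MUNC spliced cells, and most genes lie near the line of equal responses.

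The 743 higher calls were made up mainly of 289 genes that rose in MUNC spliced cells and were not called in MUNC genomic cells, and 262 that fell in MUNC genomic cells and were not called in MUNC spliced cells. The 717 lower calls held 483 genes that rose in MUNC genomic cells and were not called in MUNC spliced cells. The median size of the contrast was 1.06 among the higher and 0.87 among the lower calls, and 124 higher against 42 lower calls reached 2 log2 units. The lines were further apart in DM3 than in GM for 73.6% of the higher and 66.8% of the lower calls. For 355 calls 1 line stayed under 1 FPM in both media, and edgeR on recovered reads called only 80 of these in the same direction, against 843 of the other 1105. In bulk libraries, fewer cells of a type and less RNA per cell cannot be told apart.

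**Figure D2:**
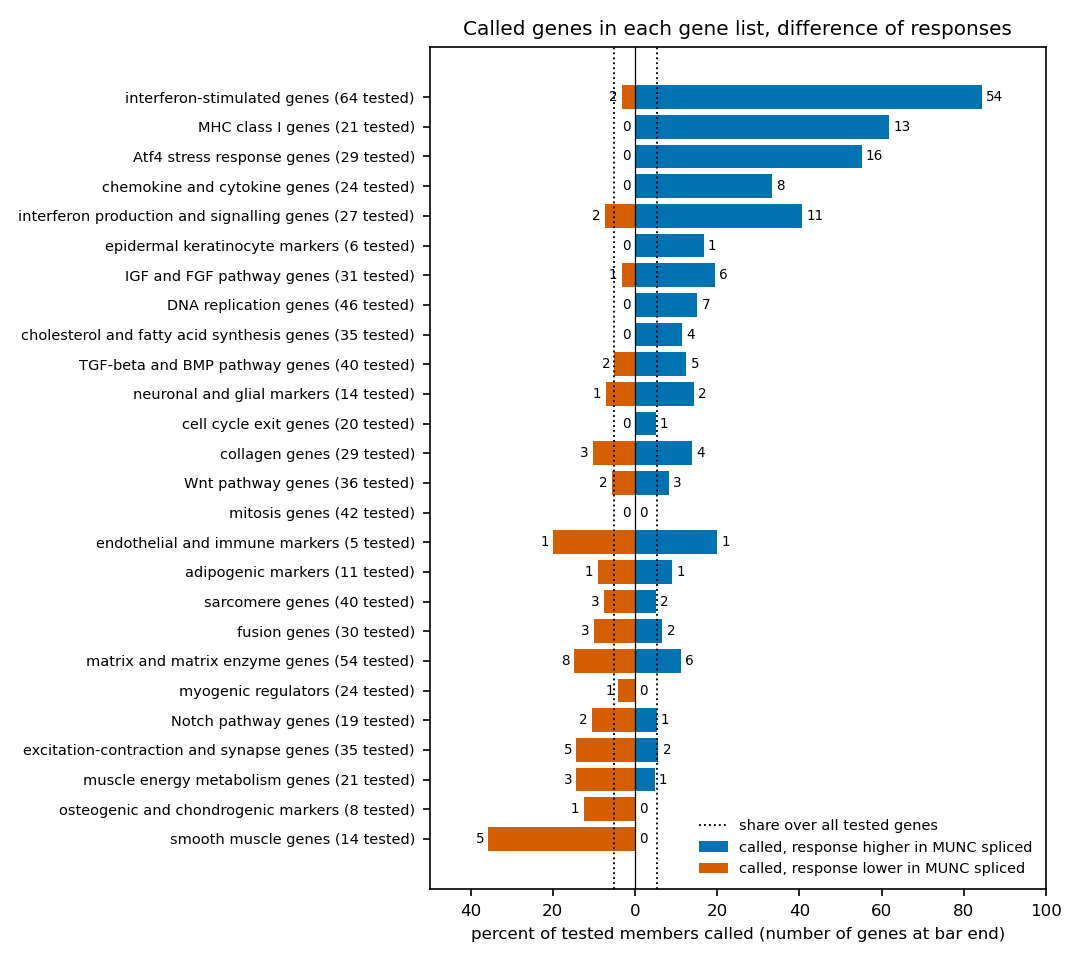
Bars give the percent of tested members of each gene list called with a higher or a lower response in MUNC spliced cells, with the number of genes at the bar end. Interferon, MHC class I and Atf4 lists lean to higher calls and smooth muscle genes to lower calls.

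On the scale of log2(FPM + 1), which understates the change of low genes, interferon-stimulated genes rose strongly in MUNC spliced cells and less in MUNC genomic cells. Of 64 tested, 60 rose in MUNC spliced cells with a median response of 3.67 over the list, and 24 rose in MUNC genomic cells with a median of 0.59. The contrast was called higher for 54 (84.4%, against 5.36% of all genes) and lower for 2, with a median of 2.73 that stayed between 2.54 and 3.22 under all alternatives. The median control response was 3.92, so the MUNC genomic line had the smallest median rise of the 3 lines. The mean log2(FPM + 1) over the list ran from 1.57 to 1.93 in MUNC genomic GM and 2.48 to 2.55 in DM3, from 1.94 to 2.85 in MUNC spliced GM and 5.63 to 6.36 in DM3, and from 2.53 to 4.24 in control GM and 6.52 to 7.24 in DM3. Many of these genes had few reads in MUNC genomic cells, and edgeR called 29 and DESeq2 35 of the list higher, and 55 of the 56 called genes kept their sign in edgeR. With the signalling and MHC class I genes below, interferon lists held 77 (10.4%) of the 743 higher calls.

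Isg15 encodes a ubiquitin-like protein that is attached to other proteins during antiviral responses. Its level in replicates 1, 2 and 3, the order kept below, was 2.68, 9.33 and 3.17 FPM in MUNC spliced GM and 255, 359 and 286 FPM in DM3, and 1.76, 2.43 and 0.756 FPM in MUNC genomic GM and 7.1, 6.01 and 8.04 FPM in DM3. Control cells had 19.5, 55.5 and 13.5 FPM in GM and 587, 403 and 377 FPM in DM3. Every MUNC spliced DM3 library lay above every MUNC genomic library, while the GM groups of the 2 lines lay close together without overlapping. The contrast was 4.13 ± 0.61 (limma adjusted p = 0.000388).

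Bst2 encodes tetherin, a membrane protein that holds budding virus at the cell surface. It went from 4.14, 7.13 and 4.91 to 429, 782 and 660.5 FPM in MUNC spliced cells and from 5.78, 8.78 and 4.81 to 24.7, 23.4 and 30.7 FPM in MUNC genomic cells. The 2 lines overlapped in GM and were far apart in DM3, with a contrast of 4.70 ± 0.39 (limma adjusted p = 1.65e-06). Oas1a, an oligoadenylate synthetase that activates RNase L, went from 0.151, 0.458 and 0.0902 to 50.2, 82.3 and 57.5 FPM in MUNC spliced cells and stayed at or below 0.137 FPM in all MUNC genomic libraries. Its contrast was 5.68 ± 0.46 (limma adjusted p = 1.23e-06), and its level in control DM3 was 128, 79.3 and 67.7 FPM. Ifi27l2a and Ifi44, an interferon-induced pair of less certain function, had contrasts of 4.95 ± 0.40 (limma adjusted p = 1.23e-06) and 6.34 ± 0.94 (limma adjusted p = 0.000425). Trim30a, a regulator of inflammatory signalling, had a contrast of 5.20 ± 0.89 (limma adjusted p = 0.00151). The calls of Isg15, Bst2, Oas1a, Ifi27l2a, Ifi44 and Trim30a held in all 22 alternatives.

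Slfn9 and its neighbour in name Slfn10-ps, members of the Schlafen family, moved in opposite directions in the 2 lines. Slfn9 rose from 10.5, 7.88 and 9.99 to 40.04, 70.5 and 49.8 FPM in MUNC spliced cells and fell from 24.3, 21.5 and 17.4 to 1.86, 1.93 and 1.89 FPM in MUNC genomic cells. Every MUNC genomic GM library lay above every MUNC spliced GM library, and the order was turned in DM3. The contrast was 5.27 ± 0.36 for Slfn9 (limma adjusted p = 4.26e-07) and 3.16 ± 0.31 for Slfn10-ps (limma adjusted p = 1.04e-05), both called in all 22 alternatives. Reads of close relatives such as these, the Oas1 genes, Ifit3 and Ifit3b, or the H2-Q genes may be split between copies.

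The largest contrast among named antiviral genes belonged to Oas2, at 7.23 ± 0.72 (limma adjusted p = 1.04e-05), from 0.0252, 1.98 and 0.234 to 238, 307 and 388 FPM in MUNC spliced cells and from 0.0143, 0 and 0.042 to 0.0989, 0.422 and 0.527 FPM in MUNC genomic cells. All MUNC genomic libraries were under 1 FPM, and edgeR and DESeq2 on the recovered reads did not call the gene (adjusted p = 0.617 and 0.0842). Iigp1, Mx2 and Ifit3b, with limma contrasts of 6.27, 5.31 and 5.11, were likewise called by neither tool. For Gm4951, Oas3, Usp18 and Ddx60, with contrasts of 5.35, 5.20, 5.18 and 5.13, edgeR did not call the gene and DESeq2 did. Mx1, a GTPase that blocks incoming virus, was at 0 in all 6 MUNC genomic libraries and reached 7.02, 25.2 and 15.6 FPM in MUNC spliced DM3. Ifitm3, a membrane protein that hinders viral entry, lay between 193 and 296 FPM in GM over both lines and had a smaller contrast of 1.23 ± 0.22 (limma adjusted p = 0.00211). The 2 lower calls of the list were Ifitm10 (-1.18 ± 0.25, limma adjusted p = 0.00638) and Ifi27 (-1.15 ± 0.32, limma adjusted p = 0.0285). Leaving out 1 of the 12 libraries at a time, Ifi27 was not called in 8 fits.

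**Figure D3:**
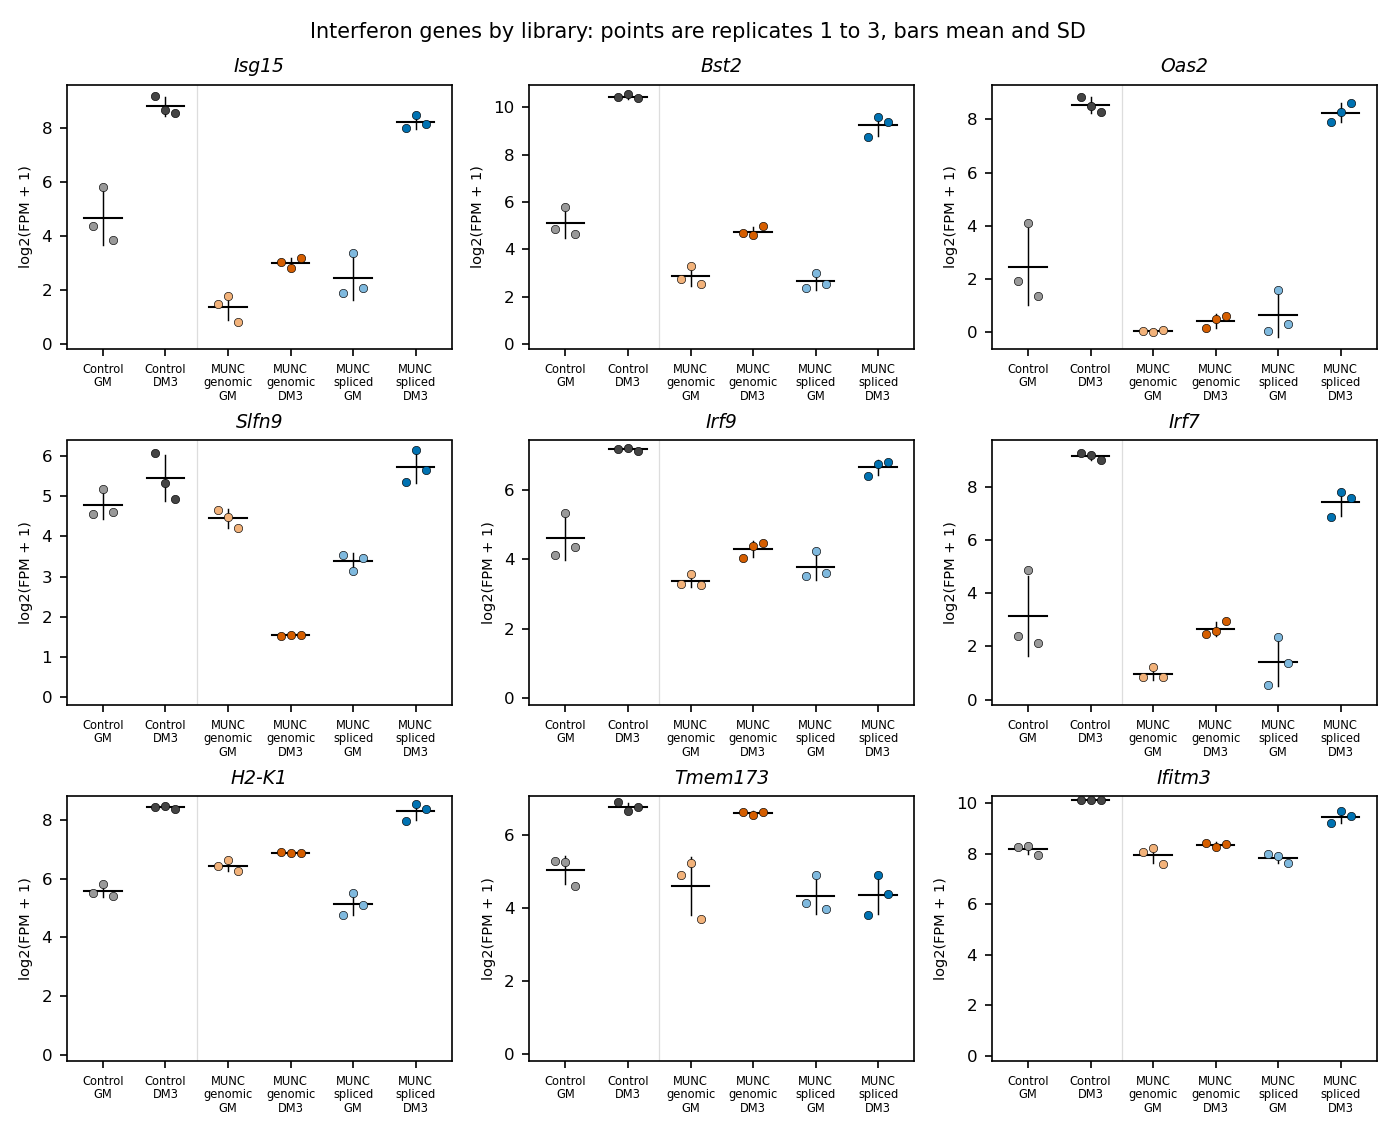
Each panel gives log2(FPM + 1) of 1 gene in the 18 libraries, with points for replicates 1 to 3 and bars for the mean and SD of each group. For Isg15, Bst2, Oas2, Irf9 and Irf7 the MUNC genomic DM3 points lie below both the MUNC spliced and the control DM3 points, and Tmem173 shows the reverse order between the 2 MUNC lines.

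Among 27 interferon production and signalling genes, 11 (40.7%) were called higher and 2 (7.41%) lower, against 5.36% and 5.17% of all genes. The median contrast was 0.21. Irf9, the DNA-binding subunit of the interferon-activated complex, rose from 10.4, 17.6 and 11.1 to 83.4, 107 and 109 FPM in MUNC spliced cells and from 8.79, 11 and 8.46 to 15.3, 19.6 and 21.2 FPM in MUNC genomic cells. The GM ranges of the 2 lines overlapped, the DM3 ranges did not, and the contrast was 1.95 ± 0.35 (limma adjusted p = 0.00214). Its partner Stat2 had a contrast of 2.31 ± 0.49 (limma adjusted p = 0.00656). Irf7, the factor that amplifies interferon production, rose from 0.48, 4.11 and 1.57 to 115, 222 and 193 FPM in MUNC spliced cells and from 0.802, 1.33 and 0.798 to 4.55, 4.91 and 6.79 FPM in MUNC genomic cells, with a contrast of 4.30 ± 0.76 (limma adjusted p = 0.00187). The kinase Jak2 and the RNA editing enzyme Adar were called higher as well, at 0.74 ± 0.15 and 1.74 ± 0.32. The receptor genes Ifnar1 and Ifnar2 and the factor Irf3 were not called, at -0.20 ± 0.13, -0.17 ± 0.16 and -0.26 ± 0.12.

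Sensors of foreign nucleic acid and their adaptors did not all move one way. The RNA sensors Dhx58 and Ifih1 were called higher, at 4.50 ± 0.39 (limma adjusted p = 2.48e-06) and 2.60 ± 0.53 (limma adjusted p = 0.00483), in all 22 alternatives. Ddx58 and Tlr3 were also called, at 2.00 ± 0.52 (limma adjusted p = 0.0208) and 2.04 ± 0.52 (limma adjusted p = 0.0202), but neither was called without replicate 1 of MUNC genomic GM. Tmem173 encodes STING, the adaptor of the DNA sensing pathway, and went the other way. It had 16.3, 29 and 14.6 FPM in MUNC spliced GM and 13, 28.6 and 19.9 FPM in DM3, and rose from 28.6, 36.1 and 11.9 to 97.5, 92.1 and 97 FPM in MUNC genomic cells. The GM ranges and the MUNC spliced DM3 range overlapped, and only the MUNC genomic DM3 libraries lay above them. The contrast was -1.96 ± 0.48 (limma adjusted p = 0.0164). Control cells also rose, from 37.5, 37.3 and 23.2 to 117, 99.5 and 107 FPM. The DNA sensor gene Cgas was called higher at 0.98 ± 0.30 (limma adjusted p = 0.0494) and the RNA pathway adaptor Mavs lower at -0.54 ± 0.15 (limma adjusted p = 0.035), and these calls were lost in 9 and 8 of the 12 fits without 1 library.

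MHC class I genes, which present peptides to T cells, rose in both lines and more in MUNC spliced cells. All 21 tested members rose in MUNC spliced cells (median response 2.27) and 16 rose in MUNC genomic cells (median 0.72). The contrast was positive for all 21 and called higher for 13 (61.9%, against 5.36% of all genes), with a median of 1.5. The median control response was 2.42. H2-K1, a classical heavy chain, went from 26.4, 44.9 and 33.7 to 247, 373 and 333 FPM in MUNC spliced cells and from 86, 98.3 and 74.8 to 120.04, 115 and 117 FPM in MUNC genomic cells. The MUNC genomic libraries were the higher in GM and the lower in DM3, without overlap in either medium. The contrast was 2.71 ± 0.25 (limma adjusted p = 3.70e-06). B2m, the light chain, had a contrast of 2.05 ± 0.30 (limma adjusted p = 0.000365), and H2-D1 one of 2.03 ± 0.24 (limma adjusted p = 5.78e-05). The peptide transporter Tap1, the non-classical H2-T24 and the class I transactivator Nlrc5 had contrasts of 2.29, 3.76 and 2.67. The immunoproteasome subunit Psmb8 was called by limma at 2.69 ± 0.37 (limma adjusted p = 0.000225) with MUNC genomic GM at 0, and its sign turned in edgeR, at -0.064.

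Genes of the Atf4 program had a higher response in MUNC spliced cells. Of 29 tested, 16 (55.2%, against 5.36% of all genes) were called higher and none lower. All 29 contrasts were positive with a median of 1.02. In MUNC genomic cells 14 fell and 3 rose, and in MUNC spliced cells 11 rose and none fell. The median control response was -0.38. Psat1, an enzyme of serine synthesis, had 378, 352 and 368 FPM in MUNC spliced GM and 471, 271 and 417 FPM in DM3, and fell from 862, 842 and 1082 to 258, 232 and 259.7 FPM in MUNC genomic cells. MUNC genomic GM lay above all other libraries of the 2 lines, and control cells fell from 611, 684 and 624 to 185, 142 and 157 FPM. The contrast was 1.92 ± 0.23 (limma adjusted p = 7.17e-05). Psph, the last enzyme of the same route, Shmt2, which passes serine carbon to folate, and Asns, which makes asparagine, had contrasts of 1.83, 1.40 and 1.26.

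Sulfur amino acid and stress genes of the same list also had a higher response in MUNC spliced cells, though not all fell in MUNC genomic cells. Cth, which makes cysteine, had 9.89, 12.2 and 16.7 FPM in MUNC spliced GM and 42.2, 11.7 and 30.3 FPM in DM3, and fell from 24.2, 45.9 and 25.6 to 11, 5 and 6.28 FPM in MUNC genomic cells. Replicate 2 of MUNC spliced DM3 fell within the range of its GM group, and the 2 media did not overlap in MUNC genomic cells. The contrast was 2.89 ± 0.60 (limma adjusted p = 0.006). Slc7a11, the cystine importer, had a contrast of 2.18 ± 0.43 (limma adjusted p = 0.00421). Ddit3, which encodes the stress factor CHOP, rose from 31.8, 37.1 and 25.2 to 117, 194 and 289.6 FPM in MUNC spliced cells and from 29.4, 37.9 and 32.4 to 64.5, 39.8 and 71.4 FPM in MUNC genomic cells, a contrast of 1.79 ± 0.44 (limma adjusted p = 0.0158). The pseudokinase Trib3 and the glutathione-degrading Chac1 had contrasts of 2.36 and 1.81. Atf4 itself was called higher at 0.64 ± 0.16 (limma adjusted p = 0.0179), and not called without replicate 3 of MUNC genomic DM3. The other 9 genes named here from this list were called in all 22 alternatives.

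Of 35 cholesterol and fatty acid synthesis genes, 25 fell in MUNC genomic cells and 5 in MUNC spliced cells, and 4 contrasts (11.4%, against 5.36% of all genes) were called higher: Srebf1, a master regulator of lipid synthesis, at 0.88 ± 0.23 (limma adjusted p = 0.0203), Acaca, which commits carbon to fatty acids, at 0.87 ± 0.22 (limma adjusted p = 0.0193), and the desaturases Fads1 and Fads2 at 0.79 and 1.23. The list's median contrast of 0.47 dropped to 0.04 without replicate 1 of MUNC spliced DM3, whose list mean was 7.08 log2(FPM + 1) against 6.14 and 5.77 in replicates 2 and 3. The calls numbered 10 without replicate 3 of that group and 1 without replicate 2 of MUNC genomic DM3. Srebf1 was not called without replicate 2 of MUNC genomic DM3, Acaca without replicate 3 of MUNC genomic GM, and Fads1 and Fads2 in 9 and 6 of the 12 fits without 1 library.

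**Figure D4:**
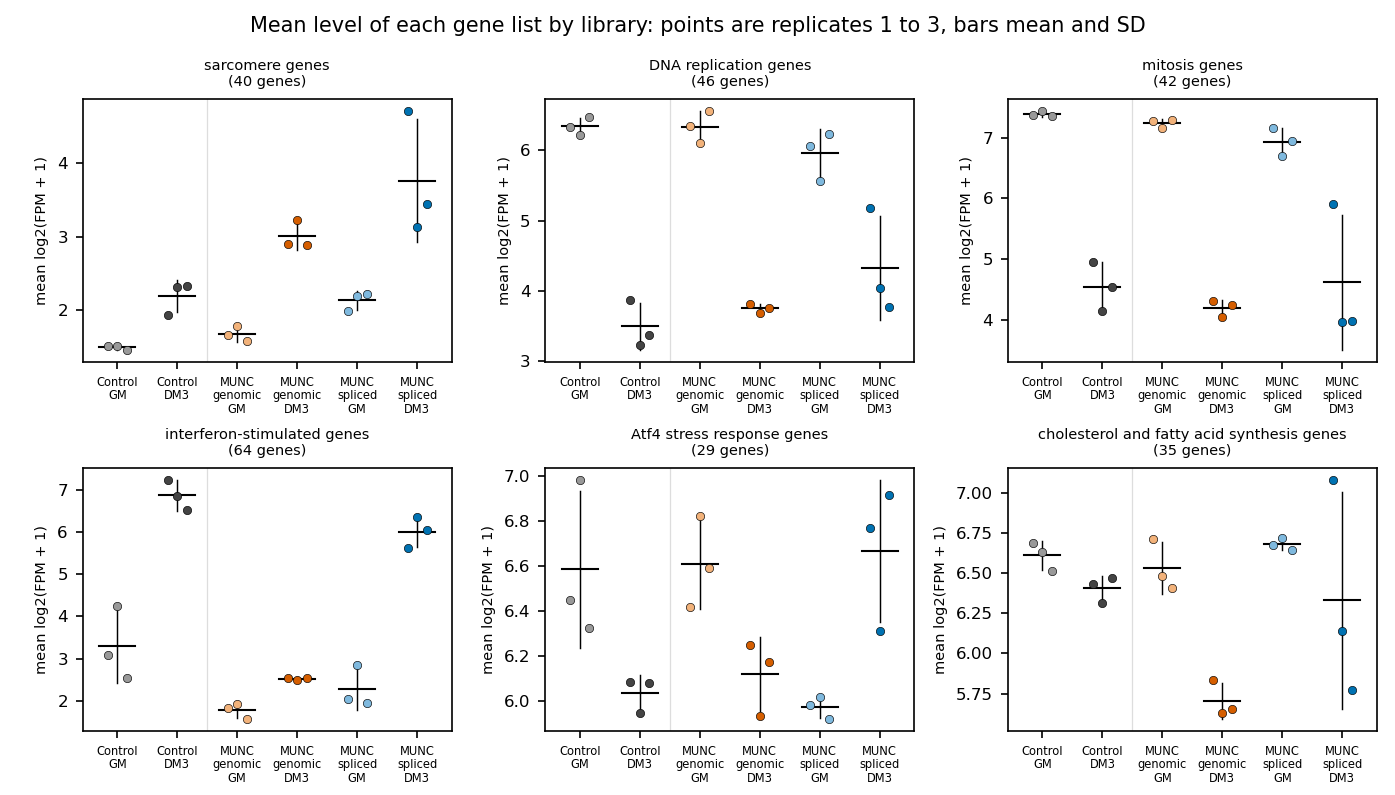
Each panel gives the mean log2(FPM + 1) over the tested genes of 1 list in the 18 libraries, with points for replicates 1 to 3 and bars for the mean and SD of each group. Replicate 1 of MUNC spliced DM3 lies above the other 2 replicates for sarcomere, DNA replication, mitosis and lipid synthesis genes, at 4.71, 5.18, 5.90 and 7.08, and not for interferon-stimulated genes.

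On the other side, the lowest contrasts belonged to genes that rose in MUNC genomic cells and rose less, were not called or, for Loxl2, fell in MUNC spliced cells. Osr2, a zinc finger transcription factor of limb and palate development, had 0.58, 0.568 and 0.757 FPM in MUNC spliced GM and 0.418, 0.505 and 0.741 FPM in DM3, and went from 0.387, 0.962 and 0.294 to 42.2, 37.6 and 35.1 FPM in MUNC genomic cells. The 3 MUNC genomic DM3 libraries lay far above all others, including control DM3 at 1.25, 1.26 and 1.75 FPM. The contrast was -4.76 ± 0.21 (limma adjusted p = 1.79e-09). Clu, which encodes the secreted chaperone clusterin, went from 1.77, 1.5 and 0.631 to 1.86, 6.78 and 2.12 FPM in MUNC spliced cells and from 1.32, 1.32 and 0.735 to 43.7, 98.1 and 65.1 FPM in MUNC genomic cells, a contrast of -4.11 ± 0.47 (limma adjusted p = 3.72e-05). Control DM3 had 1.23, 0.908 and 1.11 FPM. The actin-associated Fam107a, the cornified envelope gene Sprr1a and the acid phosphatase gene Acpp had contrasts of -3.71, -3.71 and -3.42. The sorting receptor Sorcs2, the immune checkpoint ligand Cd200, the protease Adam19 and BC034090 had contrasts of -3.10, -2.95, -2.84 and -2.83. The calls of these 9 genes held in all 22 alternatives, while Myh14 (-3.91) and Acox2 (-2.99) were not called by edgeR (adjusted p = 0.056 and 0.436). Acox2 was also not called by DESeq2 (adjusted p = 0.506) or with a pseudocount of 0.1, while DESeq2 called Myh14.

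Matrix genes were called in both directions, against 5.36% higher and 5.17% lower over all genes. Of 54 matrix and matrix enzyme genes 6 (11.1%) were called higher and 8 (14.8%) lower, falling to 5 lower without MUNC spliced GM 2, MUNC genomic GM 1, or MUNC genomic DM3 2 or 3. Of 29 collagen genes 4 (13.8%) were higher and 3 (10.3%) lower. Loxl2, which crosslinks collagen and elastin, fell from 4.67, 4.12 and 2.58 to 1.12, 0.697 and 0.796 FPM in MUNC spliced cells and rose from 249, 381 and 127 to 791, 767 and 826 FPM in MUNC genomic cells. The lines did not overlap in either medium, and control cells went from 10.1, 8.03 and 5.24 to 5.22, 2.05 and 4.53 FPM. The contrast was -3.12 ± 0.47 (limma adjusted p = 0.000492). Col18a1, a basement membrane collagen, had 34, 73.4 and 47 FPM in MUNC spliced GM and 30.1, 43.7 and 43.4 FPM in DM3, and rose from 239, 435 and 258 to 1628, 1314 and 1482 FPM in MUNC genomic cells, a contrast of -2.63 ± 0.37 (limma adjusted p = 0.000289). Adamts4, an aggrecanase, rose in both lines, by 1.69 ± 0.37 in MUNC spliced and 4.45 ± 0.37 in MUNC genomic cells, and the fibrillar Col11a2 had a contrast of -1.65. Higher contrasts were measured for the adhesion modulator Tnc (2.12), the elastic fibre gene Fbln5 (2.08) and the vessel collagen Col8a1 (1.22). Fbln5 rose from 35.4, 16.6 and 21.6 to 95.7, 60.8 and 106 FPM in MUNC spliced cells and lay between 1.34 and 2.18 FPM in all MUNC genomic libraries.

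Smooth muscle genes leaned to a higher response in MUNC genomic cells: 5 of 14 (35.7%, against 5.17% of all genes) were called lower and none higher. The median contrast was -0.62, and the median control response was 0.09. Lmod1, an actin nucleator, had 1.54, 1.08 and 1.05 FPM in MUNC spliced GM and 3.13, 0.819 and 1.3 FPM in DM3, and rose from 2.42, 3.43 and 1.24 to 31.5, 22.4 and 16.9 FPM in MUNC genomic cells. Only the MUNC genomic DM3 libraries exceeded 4 FPM, and the contrast was -2.66 ± 0.41 (limma adjusted p = 0.000607). The myosin light chain Myl9, the tropomyosin Tpm1 and the actin-binding Synpo2 were called lower at -1.59, -0.95 and -0.94, and Cnn2 at -0.67, a call lost in 7 of the 12 fits without 1 library.

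**Figure D5:**
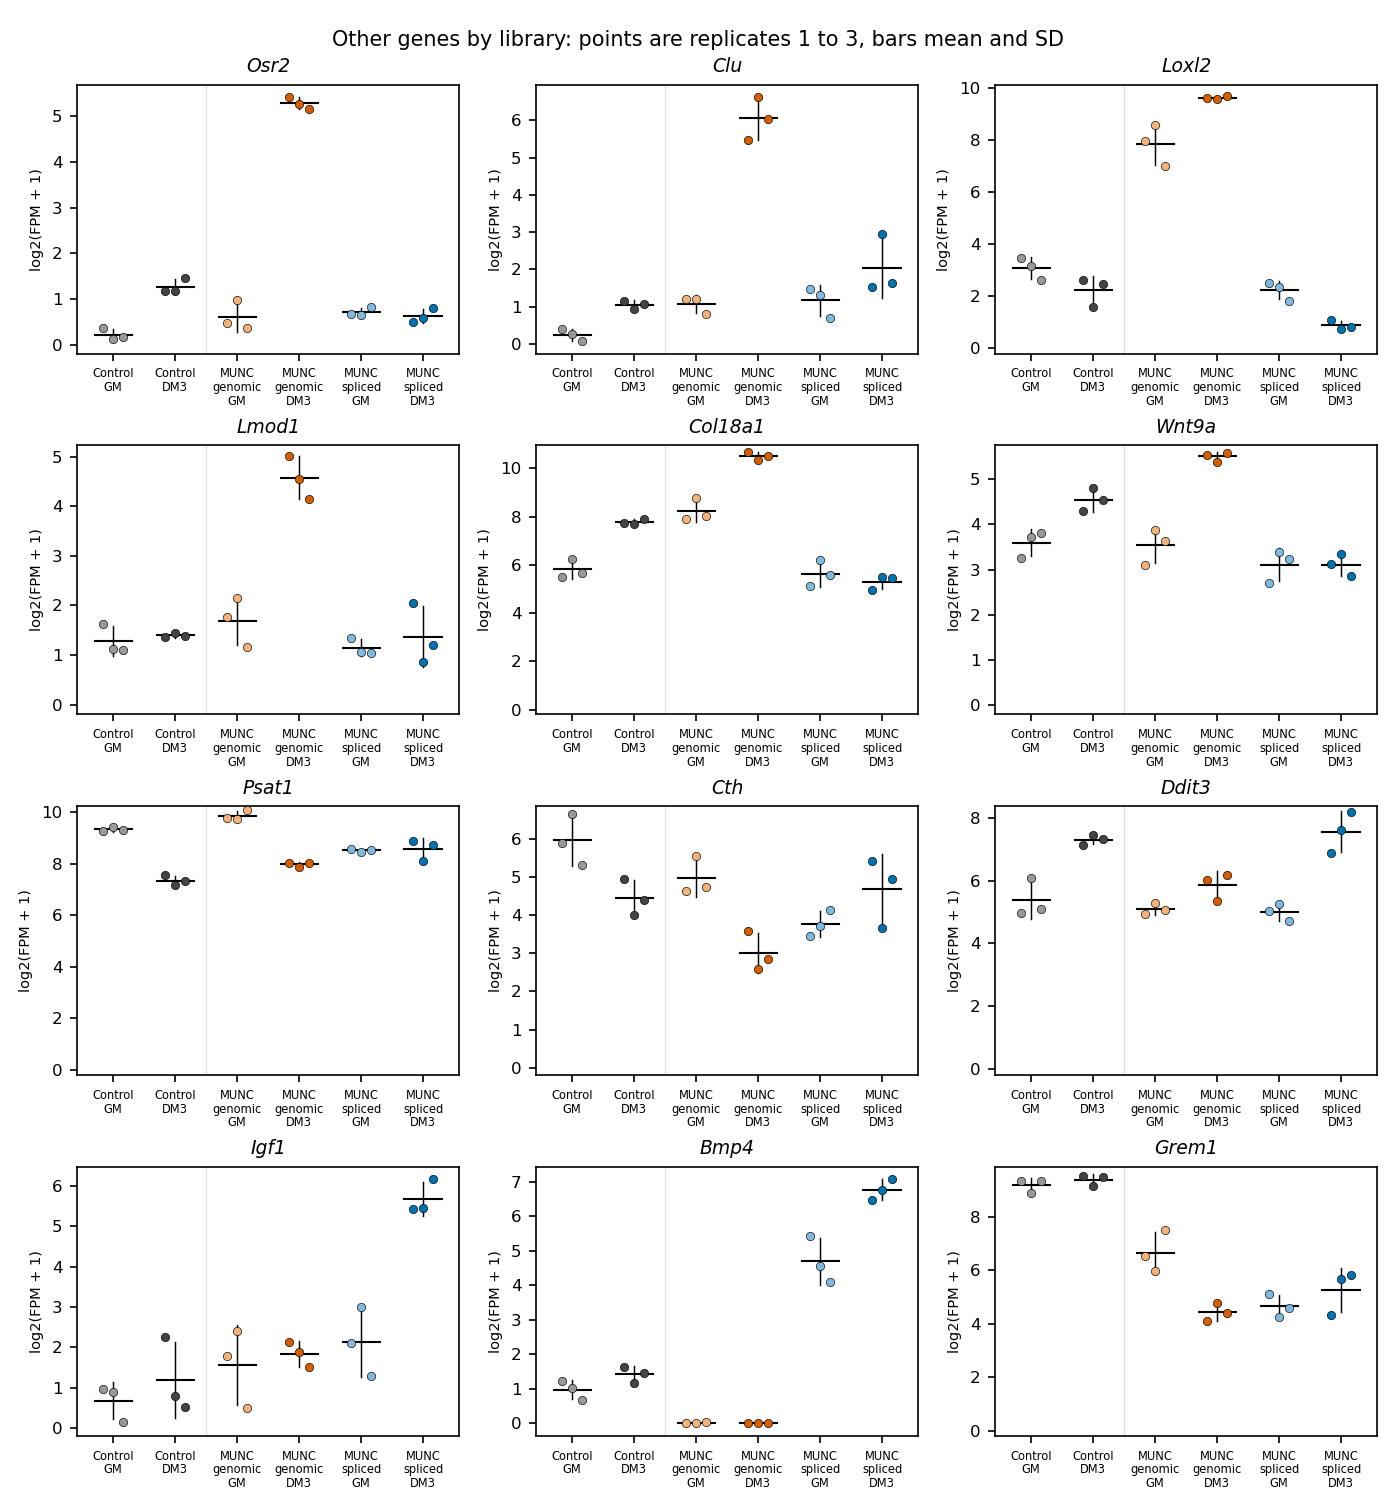
Each panel gives log2(FPM + 1) of 1 gene in the 18 libraries, with points for replicates 1 to 3 and bars for the mean and SD of each group. Osr2, Clu, Lmod1 and Col18a1 are highest in MUNC genomic DM3, Psat1 and Cth drop in MUNC genomic DM3, and Igf1 is highest in MUNC spliced DM3.

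Signalling genes were called in small numbers, against 5.36% higher and 5.17% lower over all genes. Of 31 IGF and FGF genes 6 (19.4%) were higher and 1 (3.23%) lower, and 3 were higher without MUNC spliced GM 3, MUNC genomic GM 1 or 3, or MUNC genomic DM3 3. The growth factor Igf1 rose from 3.33, 7.04 and 1.42 to 42.3, 42.7 and 71.5 FPM in MUNC spliced cells and had 2.43, 4.34 and 0.399 FPM in MUNC genomic GM and 3.36, 2.68 and 1.83 FPM in DM3. Only MUNC spliced DM3 exceeded 8 FPM in the 4 groups, and the contrast was 3.28 ± 0.72 (limma adjusted p = 0.00852), with an edgeR adjusted p of 0.0603. Fgf7 fell in MUNC genomic cells, with a contrast of 2.06 ± 0.38 (limma adjusted p = 0.00234). The binding protein Igfbp2 fell from 62.3, 82 and 58 to 24.6, 22.4 and 9.87 FPM in MUNC genomic cells and stayed under 0.24 FPM in MUNC spliced cells, a contrast of 1.97, and Igfbp6 went the other way at -1.62. The ligand Igf2 was called at 2.31 ± 0.64 (limma adjusted p = 0.031), but edgeR and DESeq2 gave the opposite sign, at -0.86 and -0.93.

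Of 40 TGF-beta and BMP genes 5 (12.5%) were higher and 2 (5%) lower. For this list and the Wnt and Notch lists below, the shares over all genes were 5.36% higher and 5.17% lower. Grem1, a secreted BMP antagonist, had 33.8, 18.1 and 22.8 FPM in MUNC spliced GM and 19, 49.8 and 55.2 FPM in DM3, and fell from 90.8, 61.2 and 181 to 16.2, 26.3 and 20.4 FPM in MUNC genomic cells, a contrast of 2.85 ± 0.54 (limma adjusted p = 0.0029). The MUNC spliced groups overlapped each other, and the MUNC genomic groups did not. Ltbp1, which holds latent TGF-beta in the matrix, had a contrast of 1.40, and the BMP effector Smad5 one of -0.63. Bmp4, counted among the 5 higher calls, rose from 42.1, 22.5 and 16.1 to 87.9, 106 and 134 FPM in MUNC spliced cells. It was at or below 0.0210 FPM in all MUNC genomic libraries, so its contrast of 2.07 repeats the MUNC spliced rise and does not compare 2 responses. Neither edgeR (adjusted p = 0.753) nor DESeq2 (adjusted p = 0.514) called it. Of 36 Wnt genes 3 (8.33%) were higher and 2 (5.56%) lower, and the ligand Wnt9a rose from 7.57, 13.7 and 11.4 to 45.1, 40.7 and 46.9 FPM in MUNC genomic cells against 5.48, 9.5 and 8.4 to 7.67, 9.15 and 6.27 FPM in MUNC spliced cells, a contrast of -1.96 ± 0.32 (limma adjusted p = 0.000877). The 3 higher Wnt calls, Axin2, Rspo3 and Fzd8, were made by neither edgeR (adjusted p = 0.288, 0.235 and 1) nor DESeq2 (adjusted p = 0.108, 0.262 and 0.894). Of 19 Notch genes 1 (5.26%) was higher and 2 (10.5%) lower, among them the ligand Dll1, which rose in both lines, by 1.88 ± 0.26 and 3.71 ± 0.26. EdgeR called no Notch gene lower, with an adjusted p of 0.0636 for Dll1, and DESeq2 called 2.

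Most sarcomere genes rose in both lines, and few contrasts were called. Of 40 sarcomere genes 31 rose in MUNC spliced and 26 in MUNC genomic cells, and 2 contrasts (5%) were called higher and 3 (7.5%) lower. These shares were near the 5.36% and 5.17% over all genes. Without replicate 1 of MUNC spliced DM3 6 were lower, and without replicate 2 of that group 7 were higher and 1 lower. The list's median contrast was 0.33 with all libraries and -0.05 without replicate 1 of MUNC spliced DM3, whose list mean was 4.71 log2(FPM + 1) against 3.13 and 3.44 in replicates 2 and 3, and it was -0.24 in edgeR. In control cells the list mean was 1.46 to 1.52 in GM and 1.94 to 2.32 in DM3. Of 24 myogenic regulators none was called higher and 1, the Notch target Heyl, lower, a call lost in 15 of the 22 alternatives, edgeR and DESeq2 among them. At an unadjusted p under 0.05, limma had 3 of these regulators higher and 3 lower. After adjustment edgeR called none in either direction and DESeq2 3 higher and 1 lower.

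Myog, which switches on late muscle genes, rose from 9.72, 12.6 and 5.48 to 226, 52.6 and 41 FPM in MUNC spliced cells and from 0.143, 0.101 and 0 to 7.89, 14.7 and 6.5 FPM in MUNC genomic cells. It was at or below 0.434 FPM in every control library. The lines did not overlap in either medium, MUNC spliced being the higher, and the responses were 3.02 ± 0.45 and 3.23 ± 0.45, a contrast of -0.21 ± 0.64 (limma adjusted p = 0.884) that was -0.96 (limma adjusted p = 0.143) without replicate 1 of MUNC spliced DM3. On the ratio scale of DESeq2 the MUNC genomic response was the larger, with a contrast of -3.31 (adjusted p = 0.0326). EdgeR gave -3.18 (adjusted p = 0.0755), and limma with a pseudocount of 0.1 also called the contrast lower. The limma result for Myog thus depended on the pseudocount of 1, with MUNC genomic GM near 0. Myod1, the gene next to MUNC, had 17.9, 8.84 and 10.5 FPM in MUNC spliced GM and 53.3, 16.4 and 16 FPM in DM3, and rose from 1.66, 2.87 and 6.99 to 18.1, 22.5 and 14.5 FPM in MUNC genomic cells. Its contrast was -1.17 ± 0.58 (limma adjusted p = 0.219) and reached -1.72 (limma adjusted p = 0.0293) without replicate 1 of MUNC spliced DM3. Myh3, the embryonic myosin heavy chain, rose in both lines, by 3.95 ± 0.48 and 3.15 ± 0.48, with a contrast of 0.79 ± 0.68 (limma adjusted p = 0.512) whose sign turned in edgeR and DESeq2 and, at -0.04, without that replicate.

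Some muscle genes were called. Of 30 fusion genes 2 (6.67%) were called higher and 3 (10%) lower, against 5.36% and 5.17% of all genes. Their median contrast was -0.03, with 15 positive and 15 negative. EdgeR called 0 higher and 2 lower, and DESeq2 1 higher and 5 lower. Cdh15, the myoblast adhesion molecule M-cadherin, had 139, 206 and 164 FPM in MUNC spliced GM and 277, 189 and 172 FPM in DM3, and rose from 18.1, 29.3 and 21.2 to 92.7, 119 and 87.7 FPM in MUNC genomic cells. MUNC spliced libraries lay above MUNC genomic libraries in both media, and the gap was narrower in DM3. The contrast was -1.78 ± 0.32 (limma adjusted p = 0.00223). Of 35 excitation-contraction and synapse genes 2 (5.71%) were called higher and 5 (14.3%) lower, against 5.36% and 5.17% of all genes. The median contrast of -0.11 was -0.29 without replicate 1 of MUNC spliced DM3. EdgeR called 1 of the list higher and 3 lower, and the filter at 5 FPM left 0 higher and 2 lower. Cacna1s, also called higher, kept that call in only 3 of 21 alternatives and had the opposite sign in edgeR and DESeq2. Chrna1, the acetylcholine receptor alpha subunit of the nerve-muscle synapse, went from 143, 182 and 98.4 to 362, 199 and 164 FPM in MUNC spliced cells and from 29.5, 47.9 and 35.1 to 182, 206 and 164 FPM in MUNC genomic cells. The lines were apart in GM and overlapped in DM3, with a contrast of -1.56 ± 0.39 (limma adjusted p = 0.0179) that was not called without replicate 1 of MUNC genomic GM. Its RefSeq promoter is shown because bHLH muscle factors bind E-boxes of this kind, with capitals marking the core CAGCTG on either strand, which 18.3% of all genes with a promoter entry hold. The promoter entries of Cdh15, Ache, Casq2, Myog and Myh3 held no such core, and that of Mybph held 1. Binding was not measured.

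Chrna1, chr2:73580289-73580588, minus strand: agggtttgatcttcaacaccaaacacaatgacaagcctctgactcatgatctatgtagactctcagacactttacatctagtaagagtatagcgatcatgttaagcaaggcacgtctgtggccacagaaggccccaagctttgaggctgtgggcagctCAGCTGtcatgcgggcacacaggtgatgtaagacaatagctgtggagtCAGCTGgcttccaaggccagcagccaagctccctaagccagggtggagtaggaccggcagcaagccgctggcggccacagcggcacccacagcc

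The synaptic receptor Lrp4 and the transmitter-degrading Ache were called lower at -1.24 and -1.36, and the calcium store protein Casq2 higher at 1.92 ± 0.47 (limma adjusted p = 0.0164). Casq2 rose from 1.77, 0.715 and 1.88 to 16.6, 4.2 and 4.99 FPM in MUNC spliced cells and had 1.6, 1.06 and 1.2 FPM in MUNC genomic GM and 1.42, 0.979 and 0.839 FPM in DM3. Without replicate 1 of MUNC spliced DM3 the contrast was 1.36 (limma adjusted p = 0.00685). The fusion gene Mymk and the sarcomere gene Mybph were called higher at 2.39 ± 0.56 (limma adjusted p = 0.0123) and 1.88 ± 0.46 (limma adjusted p = 0.0153), with MUNC genomic GM at 0 in every library. Mymk reached 63.7, 11.8 and 15.3 FPM in MUNC spliced DM3 and 0.693, 2.17 and 1.41 FPM in MUNC genomic DM3, and MUNC spliced was the higher line without overlap. Both contrasts had the opposite sign in edgeR, at -4.33 and -5.04, so no direction is drawn from them. Without replicate 1 of MUNC spliced DM3 the limma contrasts were 1.67 and 1.38. Of 21 muscle energy genes 1 (4.76%, against 5.36% of all genes) was called higher and 3 (14.3%, against 5.17%) lower: Pdk4, which holds back glucose oxidation, at 1.25 ± 0.26 (limma adjusted p = 0.00594), and the glycolytic Pfkm, the phosphorylase kinase subunit Phkg1 and Pdk2 at -0.78, -0.89 and -1.19. The call of Pdk2 was lost in 5 of the 12 fits without 1 library.

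DNA replication genes fell in both lines, 46 of 46 in MUNC spliced and 45 of 46 in MUNC genomic cells, with median responses of -1.55 and -2.60. The contrast was positive for 45, and 7 (15.2%, against 5.36% of all genes) were called higher, with a median of 1.05. Without replicate 1 of MUNC spliced DM3, whose list mean was 5.18 log2(FPM + 1) against 4.04 and 3.78, the median was 0.64. In that fit 3 were called higher and 1 lower. Only 1 was called without replicate 2 of MUNC spliced GM and 18 without replicate 3 of MUNC spliced DM3, while edgeR called 8, DESeq2 18 and the fit with the replicate number as a block 17. The licensing factor Cdt1 fell from 52.9, 35.9 and 75.9 to 26.3, 18.1 and 21.8 FPM in MUNC spliced cells and from 66.5, 57.6 and 91.4 to 9.34, 7.55 and 9.62 FPM in MUNC genomic cells, and the MUNC spliced DM3 libraries were the higher without overlap. Its contrast was 1.64 ± 0.32 (limma adjusted p = 0.00356) and held in all 22 alternatives. All 42 mitosis genes fell in both lines and limma called no contrast. At an unadjusted p under 0.05 limma had 1 higher, edgeR called none and DESeq2 1, and the median contrast of 0.76 was 0.13 without replicate 1 of MUNC spliced DM3.

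In 61 of the 1460 called genes the 2 lines moved in opposite directions by their own tests, 32 up in MUNC spliced and down in MUNC genomic cells and 29 the reverse. Besides Slfn9, Slfn10-ps and Loxl2, the genes with the largest contrasts among those reaching 5 FPM were Dclk1, a microtubule-associated kinase, Efhd1, a calcium-binding mitochondrial protein, and P3h2, a collagen prolyl hydroxylase. Dclk1 rose from 129, 83.2 and 61.2 to 279, 150.5 and 197 FPM in MUNC spliced cells and fell from 51.9, 26.5 and 37 to 17, 13.3 and 17.7 FPM in MUNC genomic cells, a contrast of 2.38 ± 0.40 (limma adjusted p = 0.00115). The lines did not overlap in either medium, and control cells had 54.6, 35.7 and 40.7 FPM in GM and 57.2, 40.7 and 48.1 FPM in DM3. Efhd1 fell from 23.6, 9.37 and 12 to 5.96, 2.35 and 4.03 FPM in MUNC spliced cells and rose from 7.73, 11.6 and 8.46 to 19.98, 20.7 and 20.3 FPM in MUNC genomic cells, a contrast of -2.68 ± 0.39 (limma adjusted p = 0.000382). P3h2 had a response of -0.76 ± 0.23 in MUNC spliced cells and 1.59 ± 0.23 in MUNC genomic cells, a contrast of -2.35 ± 0.32 (limma adjusted p = 0.000225).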

How the data were processed

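The deposited file holds the authors' normalized signal, FPM (fragments scaled for library size), for 35275 Ensembl genes in 18 libraries, and per the submitters' processing notes used STAR, HTSeq and DESeq2 with mm10 (versions not given in the sources used here). A label calls the values FPKM. Every value in a library is a whole multiple of 1 step, to within 0.0342 of a read, so reads were recovered by dividing by that step and 100% came out whole within 0.05. Counting strand is not given in the sources used here, so overlapping genes cannot be separated. Symbols were matched for 34490 IDs (97.8%). Genes with at least 0.5 FPM in at least 3 libraries (13869) were fitted on log2(FPM + 1) with limma 3.58.1 (R 4.3.3), with 6 group means, 12 residual degrees of freedom, eBayes with a trend and Benjamini-Hochberg adjustment. A fold on this scale understates the change of low genes. Alternatives were pseudocounts of 0.1 and 0.5, no filter and one of 5 FPM, the 4 groups alone, 2 rescalings, edgeR 4.0.16 (quasi-likelihood, TMM) and DESeq2 1.42.0 on recovered reads, a replicate block and each of the 12 libraries left out. Named genes were Myod1, Myog and Myh3, the 12 highest and 12 lowest contrasts among genes reaching 5 FPM, and the 3 largest opposite responses in each direction. Members of 26 gene lists were also named, called or not, and not every called member is named. Members and lists were chosen with earlier results of these data known. The 5 deposited comparison tables were not used.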

Additional observations from a re-analysis of the deposited data

Results flagged for a closer look

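The following genes are singled out because the test of the difference itself called their responses different between the MUNC spliced and the MUNC genomic line. Values are contrasts in log2(FPM + 1), MUNC spliced minus MUNC genomic. Antiviral and interferon-induced genes had the highest contrasts: Oas2 7.23, Ifi44 6.34, Iigp1 6.27, Oas1a 5.68, Gm4951 5.35, Mx2 5.31, Slfn9 5.27, Oas3 5.20, Trim30a 5.20, Usp18 5.18, Ddx60 5.13 and Ifit3b 5.11. The lowest contrasts were those of Osr2 at -4.76, Clu at -4.11, Myh14 at -3.91, Fam107a at -3.71, Sprr1a at -3.71, Acpp at -3.42, Loxl2 at -3.12, Sorcs2 at -3.10, Acox2 at -2.99, Cd200 at -2.95, Adam19 at -2.84 and BC034090 at -2.83. Genes with opposite responses were Slfn10-ps at 3.16, Dclk1 at 2.38, Efhd1 at -2.68 and P3h2 at -2.35, besides Slfn9 and Loxl2.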

How the results depend on the processing

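Of the 1460 called contrasts, edgeR kept 923 and DESeq2 1194 in the same direction. EdgeR called 991, with 412 lower. With a minimum size of 1 log2 unit, 686 contrasts remained called (404 higher and 282 lower), 1253 MUNC spliced responses, 2052 MUNC genomic responses and 5 opposite responses. Leaving out 1 library at a time gave 930 to 1597 calls (485 to 764 higher, 445 to 833 lower), 3297 to 5378 MUNC spliced and 5934 to 7239 MUNC genomic responses and 43 to 62 opposite responses. The lowest count came without replicate 3 of MUNC genomic DM3, and 953 were called without replicate 1 of MUNC genomic GM (495 higher, 458 lower). Without replicate 3 of MUNC genomic GM 477 were lower, and 3297 MUNC spliced responses were left without replicate 3 of MUNC spliced GM. No rescaling moved the median of all genes by 0.1 log2.

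With the replicate number as a block, 2716 contrasts were called (1322 higher, 1394 lower) and 141 opposite responses. The samples share only a number: 13 of 18 same-numbered pairs had a correlation of deviations over 0.1, and in 15 of 18 comparisons of a library with another group the same-numbered library correlated best, a hint from the data and not the design.

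Sign changes were seen in Myog (-0.21) at 0.03, 0.08, 0.26 and 0.11 without MUNC spliced GM 2, MUNC spliced DM3 2, MUNC spliced DM3 3 or MUNC genomic DM3 2, and in Myh3 (0.79) at -0.86 (pseudocount 0.1), -0.88 (edgeR), -0.96 (DESeq2) and -0.045 (without MUNC spliced DM3 1, with up to 1.37 when another library was left out). In edgeR Psmb8 was -0.064. In edgeR and DESeq2, Igf2 was -0.86 and -0.93, Mymk -4.33 and -3.81, Mybph -5.04 and -4.52, Cacna1s -2.73 and -2.14, and Cdh5 -1.28 and -1.55. The cause was not tested. Depth limits genes near the 3-read floor of 0.0429 to 0.0757 FPM.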

Other observations

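Of 24 chemokine and cytokine genes 8 (33.3%, against 5.36% of all genes) had a higher and none a lower response in MUNC spliced cells. EdgeR called 3 of the list higher and DESeq2 5, and neither tool called any lower. Ccl7, a monocyte attractant, had 21, 5.96 and 11.5 FPM in MUNC spliced GM and 18.8, 22.3 and 16.5 FPM in DM3, and fell from 182, 60.8 and 163 to 35.2, 23.4 and 21.2 FPM in MUNC genomic cells, a contrast of 2.88 ± 0.67 (limma adjusted p = 0.0121). Csf1, the macrophage growth factor, had a contrast of 0.95 ± 0.24 (limma adjusted p = 0.0165). Cxcl9 and Il6 had contrasts of 3.29 and 1.35 with MUNC genomic cells at or below 0.129 FPM, and edgeR called neither (adjusted p = 0.0575 and 0.0876).

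Markers of other cell types were called for 9 of 44 genes tested (20.5%, against 10.5% of all genes): 1 higher and 1 lower of 11 adipogenic, 2 and 1 of 14 neuronal and glial, 1 and 1 of 5 endothelial and immune, 1 and 0 of 6 epidermal keratinocyte, and 0 and 1 of 8 osteogenic and chondrogenic genes. The share of 20.5% is that of limma. EdgeR and DESeq2 called none of the neuronal and glial or the endothelial and immune genes. EdgeR called no adipogenic gene, 1 keratinocyte gene higher and 1 osteogenic and chondrogenic gene lower. DESeq2 called 2 adipogenic genes higher and 1 lower, 1 keratinocyte gene in each direction and 1 osteogenic and chondrogenic gene lower. Krt14, a basal keratinocyte keratin, fell from 135, 60.2 and 131 to 35.1, 8.8 and 10.7 FPM in MUNC spliced cells and from 66.8, 35.2 and 79.8 to 1.56, 0.618 and 0.663 FPM in MUNC genomic cells, a contrast of 2.25 ± 0.66 (limma adjusted p = 0.0395) lost in 6 of the 12 fits without 1 library. Nefm, a neurofilament gene, fell from 4.18, 5.17 and 7.86 to 0.653, 0.497 and 0.195 FPM in MUNC genomic cells and from 136, 106 and 242 to 2.9, 4.14 and 4.46 FPM in control cells, and was at or below 0.162 FPM in MUNC spliced cells.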
